A study of Homo sapiens with 2 samples.

Results

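FBN1 and FBN2 encode fibrillin-1 and fibrillin-2, large secreted glycoproteins made mostly of repeated calcium-binding EGF-like domains. The clusters described here are places in these genes that the authors list as ADAR1 contacts in U87MG. This is a long-established human cell line from a glioblastoma, labelled as an astrocytoma. The clusters were chosen from a list of ADAR1 clusters for the whole series by position: a cluster belonged to a gene when its midpoint lay within the gene's hg19 interval and it was on the gene's strand. Both genes lie on the minus strand, FBN1 on chromosome 15 from 48700500 to 48938000 and FBN2 on chromosome 5 from 127593600 to 127873800. Of the 23782 clusters in the list, 15 met this rule, 14 in FBN1 and 1 in FBN2.

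Fibrillins assemble outside the cell into microfibrils, which give connective tissue its elasticity, act as a scaffold for elastin and hold latent transforming growth factor beta complexes in the matrix. Fibrillin-1 is the main fibrillin of adult tissue, and its gene is altered in Marfan syndrome. Fibrillin-2 is best known from developing tissue, and its gene is altered in congenital contractural arachnodactyly. ADAR1 edits RNA: it binds double-stranded stretches and turns adenosines in them into inosines. In human transcripts such stretches form above all where inverted copies of the Alu retrotransposon pair with each other.

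The study mapped ADAR1 contacts by CLIP-seq, in which ultraviolet light links proteins to the RNA they touch before the protein is pulled down and its RNA sequenced. Its 2 libraries, AB1 and AB2, both came from U87MG cells at passage 6 and are named for the antibody. The design text announces different monoclonal antibodies, but AB1 and AB2 are labelled with 1 and the same catalogue number. Neither is a control library, so background in the pull-down could not be judged. The list gives the position, strand and class (Alu or non-Alu) of each cluster. It holds no tag numbers, no scores and no column that separates AB1 from AB2, so the depth is unknown and no value below has replicates. The genes were picked out with their clusters known. Their counts, classes and positions are therefore a description, and none carries a test.

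FBN1 carried nearly all of the fibrillin clusters, and nearly all of them were non-Alu. Its 14 clusters comprised 13 non-Alu and 1 Alu, a non-Alu share of 92.9% (Wilson 95% interval for counting error only, 68.5 to 98.7%). Over the rest of chromosome 15, 138 of 846 clusters, 16.3%, were non-Alu. In the whole list the non-Alu share was 15.1%, or 3582 of 23782. FBN1 alone held 8.61% of the non-Alu clusters of chromosome 15. The FBN1 interval is 237.5 kb long and the FBN2 interval 280.2 kb, and FBN2 held 1 non-Alu cluster and 0 Alu clusters. That is 5.89 clusters per 100 kb of interval in FBN1 and 0.357 in FBN2. The RNA level of the 2 genes in these cells was not measured here, and less RNA of a gene cannot be told apart from less contact on each RNA molecule.

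**Figure D1:**
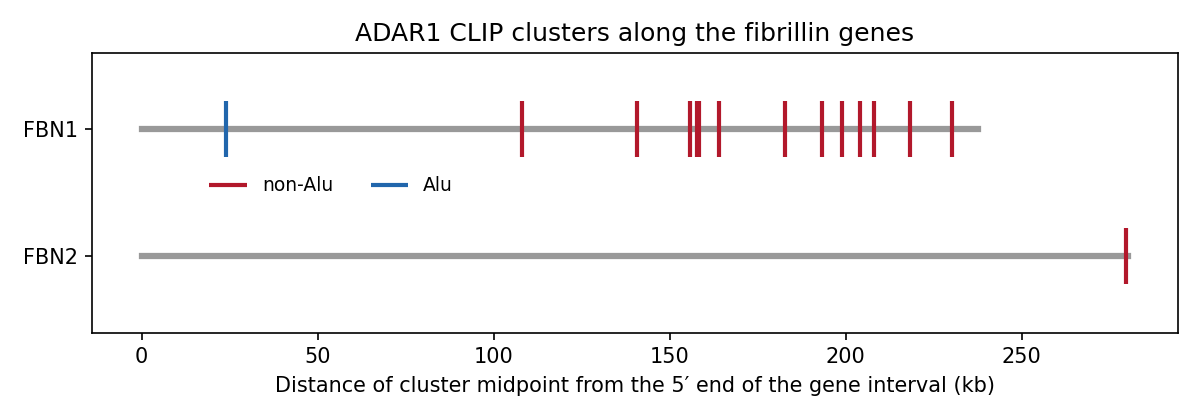
Clusters along FBN1 (upper line) and FBN2 (lower line), as the distance of each cluster's midpoint from the 5′ end of the gene interval in kb; red marks are non-Alu clusters, the blue mark is an Alu cluster, and the grey lines show the length of each interval. FBN1 has 12 of its 13 non-Alu clusters 3′ of the middle of its interval, and the single FBN2 cluster lies at the 3′ end.

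The non-Alu clusters of FBN1 lay in the 3′ part of the gene. Of 13, 12 had their midpoint 3′ of the middle of the interval and 1 lay 5′ of it. The 5′-most of them, 184 bases long from 48829804 to 48829987, had its midpoint 108.1 kb from the 5′ end, at 45.5% of the interval. The 3′-most, of 171 bases from 48707785 to 48707955, had its midpoint at 230.1 kb, or 96.9%, and started 7.29 kb short of the 3′ end of the interval. Counted in steps of 50 kb from the 5′ end, FBN1 had 1 cluster (the Alu cluster), then 0, 2 and 7, and beyond 200 kb another 4. The 5′ 45.5% of the gene thus held no non-Alu cluster.

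The gene models give a setting for this, although clusters could not be placed on them. GENCODE release 29 describes both genes on GRCh38, a different build from that of the list, and 0 of the 15 clusters fall within the GRCh38 bounds of their gene. The exon, intron or untranslated region under each cluster was therefore not assigned. In GENCODE, the FBN1 transcript ENST00000316623.9 has 66 exons with a median of 126 bases, and 58 of them, 87.9%, lie 3′ of the middle of its 237.5 kb span. The FBN2 transcript ENST00000262464.8 has 65 exons, also with a median of 126 bases, and 57 of them, 87.7%, lie 3′ of the middle of its 280.1 kb span. The longest intron measures 58.5 kb in FBN1 and 54.4 kb in FBN2. Spliced RNA makes up 4.95% of the FBN1 span and 3.83% of the FBN2 span. Within the gene bounds, GENCODE also places a short same-strand gene in each, the sense-intronic AC022467.1 in FBN1 and the small RNA RF00019 in FBN2. The FBN2 bounds, 128257909 to 128659185 on GRCh38, are wider than the transcript span. Whether RF00019 lies in the interval used here was not determined. On the opposite strand, the protein-coding SLC27A6 overlaps these wider FBN2 bounds by 121.2 kb. How much of this overlap, if any, lies in the interval used here was not determined. Nor was it determined whether any cluster belongs to the short genes.

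The single Alu cluster of FBN1 stood apart from the others. It spanned 124 bases, from 48914072 to 48914195, and its midpoint was 23.9 kb from the 5′ end, at 10.0% of the interval. It was also the shortest of the 14, and 12.9% of all Alu clusters in the list were shorter. The nearest FBN1 cluster lay 84.1 kb away toward the 3′ end. The nearest other Alu cluster on the minus strand lay 141.5 kb away, beyond the 5′ end of the gene, and the nearest on the plus strand 363.5 kb away, beyond the 3′ end. No other listed Alu cluster of either strand was thus close to it. The list does not give the orientation of Alu elements, so inverted copies could not be told apart. Because the list has no scores, an Alu element without a cluster cannot be read as one without ADAR1 contact.

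The 12 non-Alu clusters 3′ of the middle of FBN1 were spread over the stretch rather than packed into one place. They ran from 48707785 to 48797356, a span of 89.6 kb, and covered 2149 bases or 2.40% of it. The 11 gaps between them had a median of 5.67 kb and ranged from 0.618 to 18.4 kb. The closest pair, of 209 bases (48779471 to 48779679) and 197 bases (48780298 to 48780494), was separated by 618 bases. Another cluster, of 131 bases from 48782083 to 48782213, followed 1588 bases upstream, so that these 3 lay within 2.74 kb. Nearer the 3′ end, 4 clusters of 197 to 231 bases occupied 15.1 kb between 48729833 and 48744948, separated by gaps of 5.67, 4.76 and 3.84 kb. The widest gap in this stretch, 18.4 kb, lay between the clusters at 48755296 to 48755433 and 48773819 to 48773971. The remaining clusters of the stretch were those at 48719836 to 48719986, of 151 bases, at 48797211 to 48797356, of 146 bases, and the 3′-most one.

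Toward the 5′ end the clusters thinned out step by step. The gap upstream of the group of 3 was 14997 bases, the next 32.4 kb, and the last, to the Alu cluster, 84.1 kb. Further downstream the gaps showed no such order: they were 5.50 kb, 18.4 kb and 10.3 kb, then 5.67, 4.76 and 3.84 kb, and at the 3′ end 9.85 and 11.9 kb. Each of the 5 widest gaps between non-Alu clusters exceeded 10 kb.

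**Figure D2:**
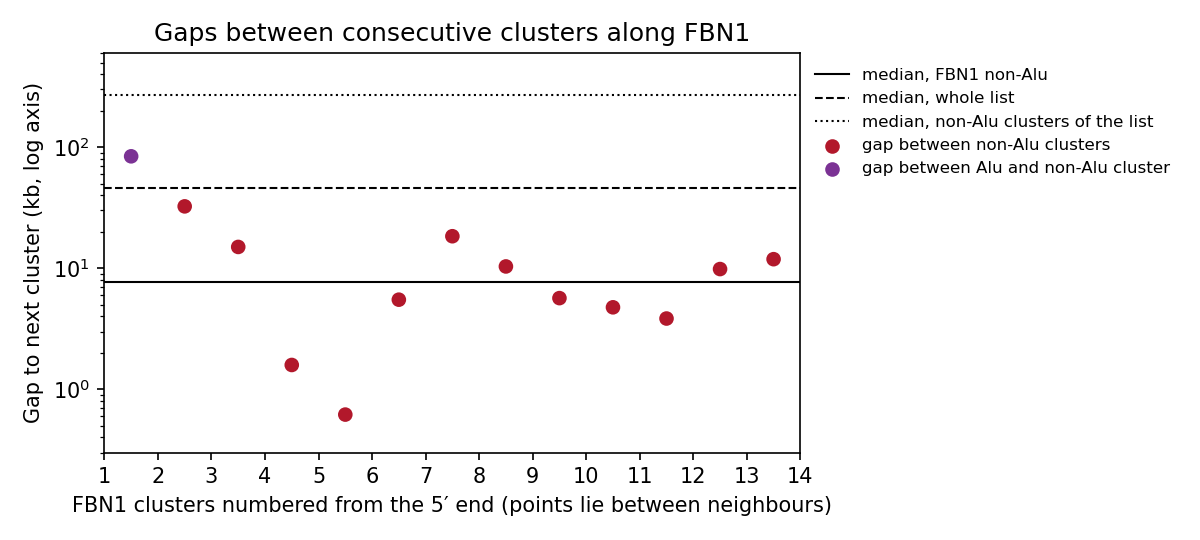
Gap in kb (log axis) between each FBN1 cluster and the next, with the 14 clusters numbered from the 5′ end; red points are gaps between non-Alu clusters, the purple point is the gap of 84.1 kb between the Alu and the first non-Alu cluster, and horizontal lines are medians of FBN1 non-Alu gaps (7.76 kb), of the whole list (45.7 kb) and of the list's non-Alu clusters (268.8 kb). Every gap between non-Alu clusters of FBN1 lies below both medians of the list.

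The clusters of FBN1 were close to each other on the scale of the list but mostly not adjacent. Over all 13 non-Alu clusters, the median of the 12 gaps was 7.76 kb. The median gap between consecutive non-Alu clusters of one strand over the whole list was 268.8 kb, with quartiles of 14.7 and 1589 kb. This list-wide value also spans the distances between genes, so it is a scale and not a like-for-like comparison. In FBN1, 7 of 12 gaps, 58.3%, were within 10 kb, against 22.9% of the 3534 non-Alu gaps in the list. Of the 13 clusters, 2 had a same-strand neighbour no more than 1000 bases away, 15.4%. The share was 17.1% over all non-Alu clusters and 4.86% over all Alu clusters. Both FBN1 clusters belong to the same pair, so the FBN1 share rests on 1 gap, and no difference was tested.

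The lengths of the FBN1 clusters were ordinary for the list. The 13 non-Alu clusters measured 131 to 231 bases with a median of 184 ± 33.2 bases (SD over clusters), against a median of 191 bases and quartiles of 141 and 222 bases over all non-Alu clusters. Of the 13, 10 lay between those quartiles, 2 below and 1 above. The longest, at 231 bases from 48729833 to 48730063, exceeded 79.5% of non-Alu clusters in the list, and the shortest, at 131 bases, exceeded 20.5%. For scale, 54 of the 66 annotated FBN1 exons are 100 to 250 bases long, and the labels give a gel selection of 75 to 250 bases for the amplified products. A cluster is neither an exon nor a single amplified product, and a link of its length to either was not tested.

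**Figure D3:**
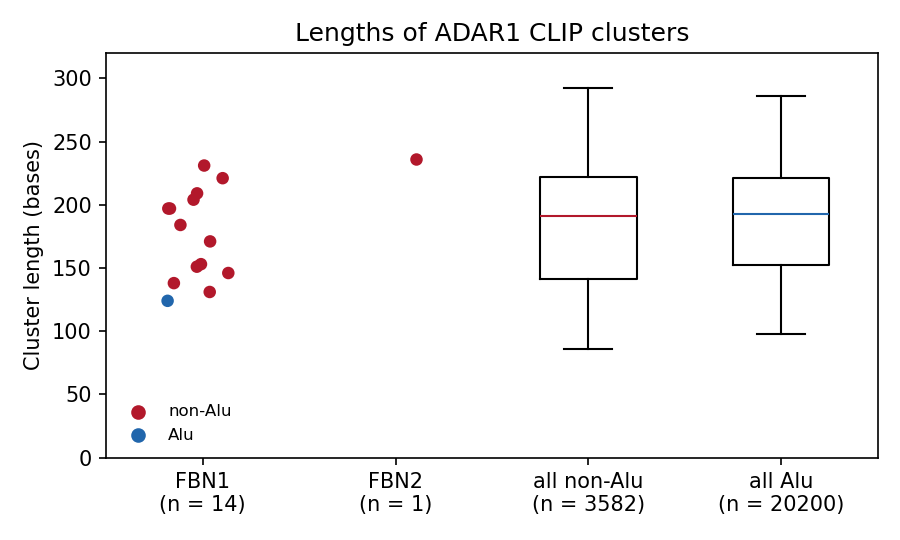
Length in bases of each cluster in FBN1 and FBN2 (points, red for non-Alu and blue for Alu, spread sideways for visibility), beside boxes for all non-Alu and all Alu clusters of the list, with the median, the quartiles and whiskers at the 5th and 95th percentiles. The FBN1 points lie between 124 and 231 bases and the FBN2 point at 236 bases.

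FBN2 presented a single listed cluster at its very end. The cluster was non-Alu, spanned 236 bases from 127594175 to 127594410 and was longer than any in FBN1, exceeding 82.7% of non-Alu clusters in the list. It started 575 bases inside the 3′ end of the interval, and its midpoint lay at 99.8% of the gene from the 5′ end. The 279.4 kb upstream of it held no listed cluster on either strand. The 3′-most cluster of FBN1, by comparison, lay 7.29 kb inside its interval. In GENCODE the 3′ untranslated region measures 2687 bases in the FBN1 transcript and 1549 bases in the FBN2 transcript. Whether either cluster lies in that region was not determined, because clusters could not be placed on the transcripts.

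No other listed cluster lay near either gene on its strand, so somewhat wider gene limits would have counted the same clusters. Narrower limits were not tried. The midpoint of the only FBN2 cluster lay 0.6925 kb inside the 3′ limit, so a limit drawn further inside could have left it out. Beyond FBN1 the next minus-strand cluster was 117.7 kb past the 5′ end and 2897 kb past the 3′ end, and both were Alu. Beyond FBN2 the next ones were 2625 kb past the 5′ end and 180.3 kb past the 3′ end, again both Alu. On the plus strand, each gene interval held 0 clusters. The FBN1 clusters thus all carried the strand of FBN1 RNA.

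Set beside the rest of the genome, the FBN1 interval was among the places richest in ADAR1 clusters, and FBN2 was not. Each strand of each chromosome was divided into tiles as long as the FBN1 interval, leaving out the tiles that overlap the gene. Of 25758 tiles, 8950, or 34.7%, held any cluster, with a median of 2 among these. As many as 14 clusters or more were found in 14 tiles, 0.0544% of all and 0.156% of those with any cluster. Counting non-Alu clusters only, 2156 tiles held any, and 6 of these, 0.278%, held 13 or more. The maximum was 29, on the minus strand of chromosome 11. In tiles as long as the FBN2 interval, 62.1% held no cluster, 12.3% held exactly 1 and the others more. By non-Alu clusters, the class of the FBN2 cluster, 90.3% of tiles held none and 6.43% exactly 1. The FBN1 interval was placed on the gene while tiles cut across genes, which favours FBN1 in this ranking.

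**Figure D4:**
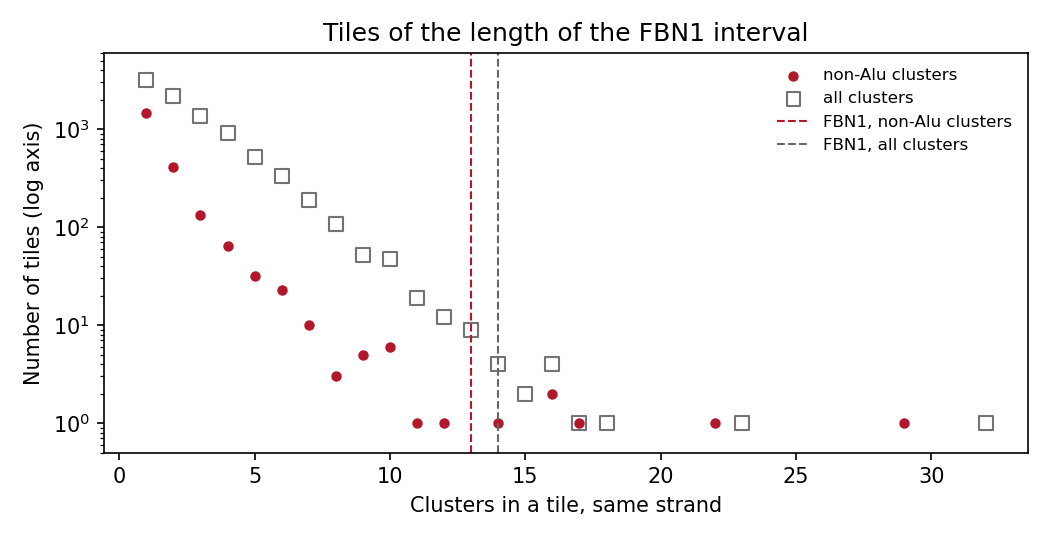
Number of tiles (log axis) with a given number of same-strand clusters, for tiles as long as the FBN1 interval; red circles count non-Alu clusters, open grey squares all clusters, tiles with 0 clusters are not drawn, and dashed lines mark the 13 non-Alu and 14 total clusters of FBN1. Beyond the red line lie 6 tiles by non-Alu clusters, and at or beyond the grey line 14 tiles by all clusters.

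Among crowded places, FBN1 was one of the more widely spaced. Outside the gene, 14 tiles held 10 or more non-Alu clusters, 10 to 29 each. The median gap between their non-Alu clusters ranged from 0.118 to 8.51 kb, with a middle value of 1.64 kb. At 7.76 kb, FBN1 had a longer median gap than 13 of the 14. Its non-Alu clusters spanned 122.2 kb, a distance exceeded in 2 of the 14 tiles, where the middle value was 60.9 kb. They covered 1.91% of that span, and 1 tile had a lower cover, while the highest, on chromosome 11, reached 53.8%. The SD of the FBN1 gaps was 0.888 times their mean, against 0.757 to 2.79 times in the 14 tiles, of which 1 was lower. This is not a like-for-like comparison, because a tile can cross from one gene to another. The tile at 2.79, on chromosome 14, had 1 gap of 169.8 kb. FBN1 had 1 Alu cluster, and the 14 tiles held 0 to 4 each, with a mean of 1.29 and at least 1 in 9 of them. The non-Alu share of these tiles, which were picked for many non-Alu clusters, ran from 75 to 100%. The share of 92.9% in FBN1 was thus not particular to it among crowded places. Over all 25758 tiles the mean was 0.784 Alu clusters, and 32.4% held any. Tiles can divide a crowded gene, which shortens spans and lowers counts in them. The genes in the tiles and their lengths were not determined, and a short gene cannot hold wide gaps. The wider spacing in FBN1 is therefore not shown to be a property of ADAR1 contact.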

How the data were processed

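Per the labels' protocols, U87MG cells were irradiated with 254 nm ultraviolet light, RNA bound to ADAR1 was immunoprecipitated, linkers were added, and the RNA was amplified by 23 cycles of PCR and size-selected. The submitters' processing notes name cutadapt 1.1, Novoalign 2.08.22 and hg19. The authors deposited a single cluster list covering the series: positions in bases, an Alu or non-Alu class and a strand, with no count, score or p-value. Steps not given in the sources used here include the cluster caller, its thresholds, the joining of AB1 and AB2 and the Alu rule. How reads matching several places were treated decides which repeat copies are listed, and how reads were joined sets lengths and gaps. Depth is unknown.

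Starts were read as counted from 0 and are printed counting from 1; if that reading is wrong, starts are 1 base too high. FBN1 and FBN2, their intervals and the comparisons were chosen with earlier results of these data known, and the tiles with 10 or more non-Alu clusters after the data were seen. A gap is the number of free bases between consecutive same-strand clusters. Values were computed with scipy 1.17.1, pandas 2.3.3 and numpy 2.4.6 under Python 3.11.15, and the counting was tested on simulated data with 20 planted clusters. Every cluster of both genes is described, those at the ends, the extremes of length and gap, and the Alu cluster by position. No hg19 genome or annotation was used, so sequences, exons and a list of elastic fibre genes were not analysed here.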

Additional observations from a re-analysis of the deposited data

How the results depend on the processing

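Of 52 alternative values, 48 stayed close to the values reported (counts within 1.5 times, the non-Alu share within its Wilson interval, other FBN1 values within 1 SD over clusters, and FBN2 values with no shift). The 4 that moved were the FBN1 count and non-Alu share under a length filter, and the tile numbers of both genes for non-Alu clusters only. Counting a cluster by any overlap, or only when wholly inside the gene, left 14 clusters in FBN1 and 1 in FBN2. So did making both intervals 5 kb longer at each end, admitting both strands and merging clusters within 50 bases. These settings had nothing to change: no other cluster lay within 5 kb, the plus strand held 0, and the smallest gap was 618 bases. Their values are thus no evidence of robustness. Dropping clusters shorter than the list's median left 6 clusters in FBN1, all non-Alu (100%), and the FBN2 cluster. That filter removes the single Alu cluster by its length. It also brought the median gap between FBN1 clusters to 4756 bases, against 9846 bases with all clusters. This counted as close only because the SD of the gaps, 22.2 kb, is wider than the gap itself and includes the 84.1 kb gap to the Alu cluster. Tiles with at least as many clusters as FBN1 numbered 14, or 18 with tiles shifted by 0.5 of a tile, and 6 for non-Alu clusters only. For FBN2 they numbered 8278, 8270 when shifted and 2108 for non-Alu clusters only. The list has no score, so no stricter threshold could be set, and with no separate columns for AB1 and AB2 no library could be left out. No paired analysis was possible because AB1 and AB2 are single libraries joined in 1 list. FBN2, with 1 cluster, has no gap and no informative share. Without tag counts, neither a weak cluster nor a place without one can be judged.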
